A study of Mus musculus with 12 samples.

Results

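The genes described here are 10 chemokines, Ccl2, Ccl3, Ccl4, Ccl5, Ccl7, Ccl20, Cxcl1, Cxcl2, Cxcl10 and Cxcl16, taken by name from a table of 54532 genes measured by RNA-seq in primary mouse hepatocytes. Each name had its own entry, so all 10 were found. The cells came from 6-week-old mice with G3bp1 knocked out in hepatocytes (G3bp1-HKO, called HKO here) or from G3bp1-Flox mice (Flox), the controls. Cells of both genotypes received either PA or BSA, which makes the groups HKO_PA, HKO_BSA, Flox_PA and Flox_BSA with 3 libraries each and 12 libraries altogether. PA and BSA are not spelled out in the labels, and the sources used here do not give the promoter that drives the deletion or the dose and duration of PA. They also leave unsaid which libraries share a mouse, so each p-value covers the spread among these libraries alone, which may be technical. G3BP1 is an RNA-binding protein of stress granules, and the study asked about its part in NASH, the inflammatory form of fatty liver disease.

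Chemokines are small secreted proteins that bind G protein-coupled receptors and draw leukocytes along a gradient. CC and CXC chemokines are told apart by the spacing of their first cysteines. In the liver, hepatocytes, Kupffer cells (the resident macrophages) and endothelium can all make them, and NF-kB, the transcription factor downstream of TNF, IL-1 and Toll-like receptors, is a well-known activator of many chemokine genes. Many chemokine mRNAs are short-lived, because AU-rich elements in their 3′ untranslated regions are bound by decay proteins such as tristetraprolin, the product of Zfp36.

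Levels are FPKM, fragments per kilobase of gene scaled to library size, as deposited, and the depth was 15.02 M to 18.42 M reads in genes per library (M, mega). Tests used limma on log2(FPKM + 1) for the 9743 genes that averaged 1 FPKM or more across the 12 libraries, and an adjusted p (Benjamini-Hochberg over those genes) under 0.05 counts as passing. Log2 differences are on that scale and come out too small for genes close to 1 FPKM or below it. G3bp1 measured 7.03 to 8.50 FPKM in HKO libraries and 37.7 to 45.7 FPKM in Flox libraries (log2 -2.27 in PA and -2.19 in BSA, adjusted p = 3.31e-09 and 3.5e-09). The HKO libraries varied more among themselves, with a median SD of a gene of 0.223 in HKO_PA and 0.21 in HKO_BSA, against 0.114 in Flox_PA and 0.104 in Flox_BSA (log2 scale). Of the hepatocyte markers, albumin (Alb) was the highest in every library. Alb had 11720, 6262 and 5322 FPKM in HKO_PA and 4091, 15610 and 14050 in HKO_BSA. In Flox_PA it had 3758, 3132 and 2890 FPKM, and in Flox_BSA 4135, 4276 and 4521. Of the same list, Apoa1 had group means of 1992 to 2819 FPKM, Ttr of 1076 to 2798 and Ass1 of 301.9 to 352.5. Hnf4a, Cps1, Tat and Arg1 were far lower, with group means between 7.88 and 20.7 FPKM. The HKO libraries numbered 1 stood apart from the others of their groups, in opposite directions for Alb, and results are given without both where that changes them.

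The libraries also differed in markers of other liver cells, and by genotype. The summed level of 15 macrophage markers was 122 to 153 FPKM in HKO_PA and 83.1 to 115 FPKM in HKO_BSA, against 1646 to 1878 FPKM in Flox_PA and 1942 to 2084 FPKM in Flox_BSA. Of 14 macrophage markers tested, Clec4f, Timd4, Vsig4 and Fcgr1 reached 1 FPKM only through their Flox level and so had to be lower in HKO. The other 10 were all lower in HKO in both treatments, where 18.8% of all genes were lower with PA and 10.8% with BSA. Among these 10 was Lyz2 (lysozyme, log2 -3.17 in PA and -4.14 in BSA). Neutrophil markers summed to 0.396 to 0.738 FPKM in HKO_PA and 0.208 to 0.514 in HKO_BSA. In Flox_PA their sum was 20.1 to 25.9 FPKM and in Flox_BSA 17.4 to 21.5. S100a9, Mpo, Elane and Retnlg were at 0 in all HKO libraries. They were low in Flox libraries too, with 4 to 12 reads of Mpo, 0 to 9 of Elane and 0 to 4 of Retnlg. S100a9 had 0.871 to 2.67 FPKM there. Most of the Flox sum was S100a8 (9.575 to 15.9 FPKM) and Csf3r (4.61 to 8.50 FPKM). Endothelial markers summed to 12.1 to 16.7 FPKM in HKO libraries and 25.6 to 30.2 FPKM in Flox libraries, and lymphocyte markers to at most 0.092 in HKO and at most 1.95 in Flox. Stellate cell markers summed to at most 1.54 FPKM in every library. The sum of the cholangiocyte markers ran the other way, at 14.1 to 28.2 FPKM in HKO libraries and 9.55 to 13.2 FPKM in Flox libraries. Most of it was Sox9 (6.19 to 7.78 FPKM in HKO, 3.46 to 3.92 in Flox) and Spp1 (5.55 to 20.3 and 5.35 to 8.95, which overlap). Krt19 and Epcam were low, with higher means in HKO. Krt7 was at most 0.0622 FPKM and was lower in HKO_BSA than in Flox_BSA. In bulk RNA, fewer cells of a type and less RNA per cell cannot be told apart.

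The 10 genes sit on 3 chromosomes (GRCm38). Ccl2 (chr11:82035571-82037453, plus strand) and Ccl7 (chr11:82045712-82047525, plus strand) lie 8.3 kb apart. Further along the same chromosome lie Ccl5 (chr11:83525778-83530518, minus strand), Ccl3 (chr11:83647844-83649355, minus strand) and Ccl4 (chr11:83662584-83664683, plus strand), the last pair 13.2 kb apart. Cxcl16 (chr11:70453983-70459984, minus strand) overlaps Zmynd15 on the other strand, which had a mean of 1.34 FPKM, and the sources used here do not say whether reads were counted by strand. Cxcl1 (chr5:90891241-90893115, plus strand) and Cxcl2 (chr5:90903871-90905938, plus strand) lie 10.8 kb apart, and Cxcl10 (chr5:92346638-92348889, minus strand) is on the same chromosome. Ccl20 (chr1:83116766-83119167, plus strand) stands alone. Cxcl1 with Cxcl2, and Ccl3 with Ccl4, are similar in sequence, and how reads shared between them were counted is not known here.

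The sequences just before the start of the transcript are shown for the genes whose NF-kB motif the results can be set beside. RefSeq promoters (GRCm38.p6; 250 bases before and 50 after the start) were at hand for 5 of the 10 genes, Ccl3, Ccl20, Cxcl1, Cxcl2 and Cxcl10. The 250 bases before the start are printed 5′ to 3′ on the gene's strand, and capitals mark matches to the NF-kB consensus and, in Cxcl10, to the interferon response core, which is the one nearest the 5′ end. Their positions are chr5:90890995-90891244 (plus strand) for Cxcl1, chr5:90903649-90903898 (plus) for Cxcl2, chr5:92348890-92349139 (minus) for Cxcl10 and chr1:83116516-83116765 (plus) for Ccl20.
Cxcl1: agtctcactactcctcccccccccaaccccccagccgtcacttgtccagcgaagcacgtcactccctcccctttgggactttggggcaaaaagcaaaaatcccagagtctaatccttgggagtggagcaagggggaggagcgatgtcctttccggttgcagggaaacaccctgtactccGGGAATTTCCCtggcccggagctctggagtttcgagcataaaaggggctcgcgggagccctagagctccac
Cxcl2: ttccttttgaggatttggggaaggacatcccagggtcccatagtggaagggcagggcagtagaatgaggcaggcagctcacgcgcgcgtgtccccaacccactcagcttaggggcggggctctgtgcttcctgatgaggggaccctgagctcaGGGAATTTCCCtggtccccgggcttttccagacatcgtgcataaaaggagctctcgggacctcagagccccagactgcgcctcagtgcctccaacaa
Cxcl10: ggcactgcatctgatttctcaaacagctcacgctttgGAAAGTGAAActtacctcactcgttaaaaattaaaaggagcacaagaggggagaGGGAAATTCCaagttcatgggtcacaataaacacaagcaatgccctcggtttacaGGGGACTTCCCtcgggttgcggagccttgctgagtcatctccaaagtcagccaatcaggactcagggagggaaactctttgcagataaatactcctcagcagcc
Ccl20: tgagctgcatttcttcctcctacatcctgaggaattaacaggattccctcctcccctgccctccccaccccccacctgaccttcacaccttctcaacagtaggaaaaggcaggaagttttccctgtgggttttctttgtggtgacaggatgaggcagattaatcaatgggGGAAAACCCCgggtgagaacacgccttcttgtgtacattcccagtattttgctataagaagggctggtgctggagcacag

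Cxcl1 and Cxcl2 carried the same 11-base stretch GGGAATTTCCC, which holds overlapping matches on both strands. It began 71 bases before the RefSeq start in Cxcl1 and 97 bases before it in Cxcl2. These starts lie 4 and 28 bases inside the gene starts given above, so the distances depend on the annotation. Cxcl10 had 2 separate NF-kB stretches, an interferon response core and 1 AP-1 motif (TGANTCA), and Ccl20 had 1 NF-kB match on the opposite strand. Ccl3 had no NF-kB, AP-1 or interferon core match in this window. TATAAA, searched for too, was in none of these 5 promoters. Both strands were searched, and among all 32851 RefSeq promoters 8.46% held the NF-kB consensus, 7.81% TGANTCA, 3.44% the interferon response core and 13.6% TATAAA. A match is a run of letters and was not tested as a binding site.

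The other sequence shared by several of the genes is the AU-rich pentamer ATTTA in the 3′ untranslated region (longest annotated, GENCODE M21). Per kilobase it was densest in Ccl3 (12.2, from 5 copies in 409 bases), Cxcl1 (11.8, from 7 in 592), Ccl20 (8.57, from 9 in 1050), Cxcl2 (7.36, from 11 in 1494) and Ccl4 (6.62, from 2 in 302). These 5 of 10 genes exceeded 5 copies per kilobase, as did 5.67% of 8706 genes of the tested set with an annotated 3′ untranslated region. Ccl7 held 4.6 per kilobase, Ccl2 3.64, Cxcl10 3.01 and Cxcl16 1.41, and Ccl5 had no copy in 199 bases. The longer element TTATTTATT was found in Cxcl1, with 2 copies, and in Cxcl2, with 4 copies, and in 7.24% of those 8706 genes. The 30-base windows richest in the pentamer, with ATTTA in capitals, show overlapping copies in Cxcl1 and Cxcl2, copies end to end in Ccl3 and copies apart in Ccl20.
Cxcl1: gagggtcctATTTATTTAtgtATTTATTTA
Cxcl2: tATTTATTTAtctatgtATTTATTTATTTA
Ccl3: gactcttcacttgaaattttATTTAATTTA
Ccl20: tgtaaagatATTTAatgttctgtttATTTA

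Summed over the 10 genes, chemokine RNA came to 399 to 583 FPKM in HKO_PA, 113 to 173 FPKM in HKO_BSA, 655 to 769.7 FPKM in Flox_PA and 462 to 499 FPKM in Flox_BSA. HKO_BSA was the lowest group and Flox_PA the highest, and HKO_PA overlapped Flox_BSA. Ccl2 was the most abundant of the 10 in every group, with 57.0% ± 4.35 of the sum in HKO_PA, 44.0% ± 1.04 in HKO_BSA, 40.9% ± 1.49 in Flox_PA and 39.4% ± 1.82 in Flox_BSA (SD, n = 3). The make-up of the rest differed by genotype. Ccl3, Ccl4, Ccl5 and Ccl7 together held 4.57% to 5.65% of the sum in HKO_PA and 5.87% to 7.62% in HKO_BSA, but 21.5% to 22.9% in Flox_PA and 26.1% to 31.7% in Flox_BSA. Cxcl16 alone held 9.68% to 10.5% in HKO_PA and 22.9% to 25.1% in HKO_BSA, against 6.38% to 7.12% in Flox_PA and 8.71% to 9.06% in Flox_BSA.

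**Figure D1:**
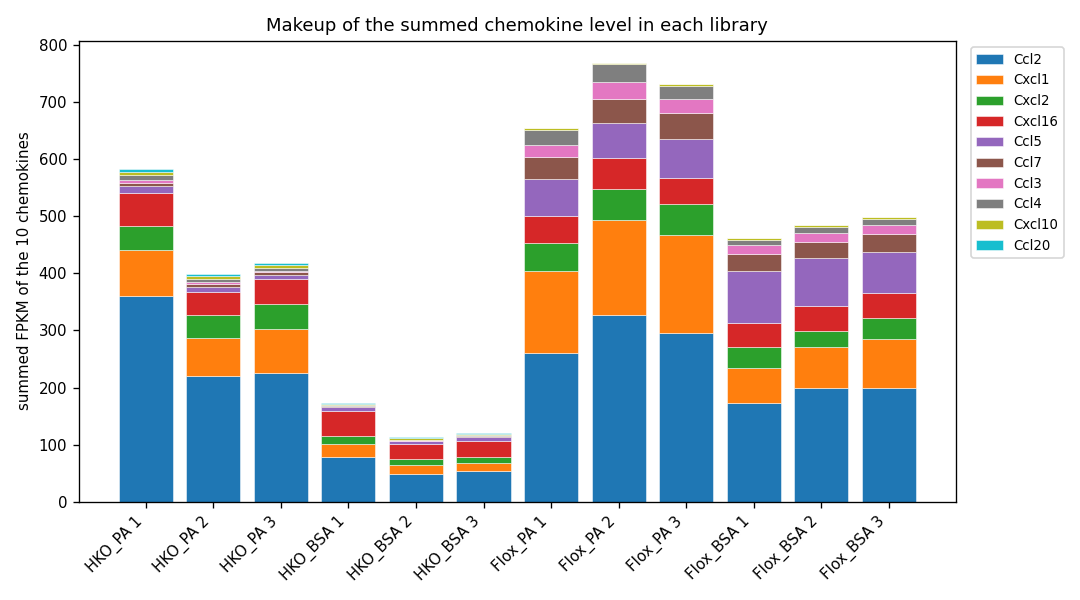
The summed FPKM of the 10 chemokine genes in each of the 12 libraries, stacked by gene, with HKO_PA, HKO_BSA, Flox_PA and Flox_BSA from left to right. HKO_BSA libraries are lowest, at 113 to 173 FPKM, and Ccl2 is the biggest segment of every bar.

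The order of the levels below Ccl2 also differed between groups. In HKO_PA, Cxcl1 came next, then Cxcl16 and Cxcl2, whose libraries overlapped, then Ccl5, and last Cxcl10, Ccl4, Ccl7, Ccl3 and Ccl20, each overlapping its neighbour. In HKO_BSA, Cxcl16 stood second, above Cxcl1, Cxcl2 and Ccl5 without overlap, and Ccl3 and Ccl4 were at the bottom and overlapped. In Flox_PA, Cxcl1 was second and Ccl5 next, Cxcl2 and Cxcl16 overlapped, Ccl7 followed, and Ccl4 overlapped Ccl3. In Flox_BSA, Ccl5 and Cxcl1 shared second place with overlapping libraries, ahead of Cxcl16, and Cxcl2 overlapped Ccl7. Cxcl10 and Ccl20 were the lowest of the 10 in both Flox groups, and neither overlapped its neighbour.

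The neutrophil attractants come first. Cxcl1, a ligand of the neutrophil receptor CXCR2, had 79.3, 66.5 and 76.8 FPKM in HKO_PA, 24.2, 16.6 and 14.8 FPKM in HKO_BSA, 144, 167 and 172 FPKM in Flox_PA, and 61.2, 71.6 and 86.2 FPKM in Flox_BSA. Within each genotype every PA library exceeded every BSA library, and within each treatment every HKO library lay under every Flox library. Cxcl2, another CXCR2 ligand, had 43.6, 41.0 and 43.8 FPKM in HKO_PA, 13.1, 10.4 and 9.22 FPKM in HKO_BSA, 49.6, 53.3 and 53.8 FPKM in Flox_PA, and 37.1, 28.2 and 35.9 FPKM in Flox_BSA. Its groups did not overlap either, and with PA the HKO libraries came close under the Flox libraries. The ratio of Cxcl1 to Cxcl2 was 1.62 to 1.82 in HKO_PA and 1.6 to 1.85 in HKO_BSA, which overlap, but 2.9 to 3.2 in Flox_PA against 1.65 to 2.54 in Flox_BSA.

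The monocyte attractants Ccl2 and Ccl7 are neighbours and both bind CCR2, the receptor by which inflammatory monocytes leave the bone marrow. Ccl2 had 361, 220.2 and 225 FPKM in HKO_PA, 77.4, 48.2 and 53.5 FPKM in HKO_BSA, 260.5, 328 and 295 FPKM in Flox_PA, and 173, 199 and 199.7 FPKM in Flox_BSA. The HKO_PA libraries overlapped the Flox_PA libraries, whereas all HKO_BSA libraries lay far under all Flox_BSA libraries. Ccl7 had 6.50, 5.04 and 4.63 FPKM in HKO_PA, 1.53, 0.792 and 1.59 FPKM in HKO_BSA, 38.0, 42.8 and 45.6 FPKM in Flox_PA, and 29.8, 29.2 and 30.7 FPKM in Flox_BSA. Here HKO stayed under Flox with PA too. Ccl2 was 43.7 to 55.5 times Ccl7 in HKO_PA and 33.6 to 60.8 times in HKO_BSA, against 6.46 to 7.66 times in Flox_PA and 5.8 to 6.81 times in Flox_BSA, so the ratio of these neighbours did not overlap between genotypes.

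Ccl3, Ccl4 and Ccl5 attract macrophages and T cells. Ccl3 had 5.15, 4.49 and 2.16 FPKM in HKO_PA, 1.009, 0.58 and 0.908 FPKM in HKO_BSA, 21.95, 28.3 and 23.6 FPKM in Flox_PA, and 15.1, 14.1 and 15.8 FPKM in Flox_BSA. Ccl4 had 7.33, 4.11 and 5.02 FPKM in HKO_PA, 0.976, 0.288 and 0.615 FPKM in HKO_BSA, 25.4, 31.9 and 23.5 FPKM in Flox_PA, and 10.1, 12.03 and 10.4 FPKM in Flox_BSA. For both genes the 4 groups were fully apart, with HKO_BSA lowest and Flox_PA highest. The lowest values of Ccl4 rest on 10, 3 and 7 reads in HKO_BSA. Ccl5 had 12.6, 8.89 and 7.31 FPKM in HKO_PA, 7.45, 4.96 and 6.04 FPKM in HKO_BSA, 64.8, 62.3 and 68.1 FPKM in Flox_PA, and 91.5, 84.3 and 73.2 FPKM in Flox_BSA. Ccl5 is the gene in which PA libraries lay under BSA libraries in Flox, and its HKO groups overlapped.

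Cxcl10, Ccl20 and Cxcl16 act on lymphocytes. Cxcl10, an interferon-inducible ligand of CXCR3 on activated T cells, had 6.91, 6.70 and 5.82 FPKM in HKO_PA, 2.43, 3.15 and 1.65 FPKM in HKO_BSA, 4.04, 2.60 and 2.80 FPKM in Flox_PA, and 2.51, 3.17 and 3.25 FPKM in Flox_BSA. HKO_PA stood above the other groups, which overlapped each other. Ccl20, the ligand of CCR6, had 3.98, 2.65 and 3.50 FPKM in HKO_PA, 1.77, 1.88 and 2.28 FPKM in HKO_BSA, 0.27, 0.291 and 0.36 FPKM in Flox_PA, and 0.404, 0.377 and 0.197 FPKM in Flox_BSA. It was measured with 39 to 76 reads in HKO libraries and 5 to 11 reads in Flox libraries, and it reached the mean of 1 FPKM needed for testing only through its HKO level, so that it had to differ by genotype. Cxcl16, a chemokine made as a membrane protein that ADAM10 and ADAM17 can shed, and the ligand of CXCR6, had 56.4, 39.5 and 43.8 FPKM in HKO_PA, 43.5, 25.8 and 29.5 FPKM in HKO_BSA, 46.6, 53.8 and 46.7 FPKM in Flox_PA, and 41.5, 44.0 and 43.4 FPKM in Flox_BSA. Its group means lay between 32.9 and 49.1 FPKM, and HKO_PA 1 and HKO_BSA 1 were the highest of their groups.

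**Figure D2:**
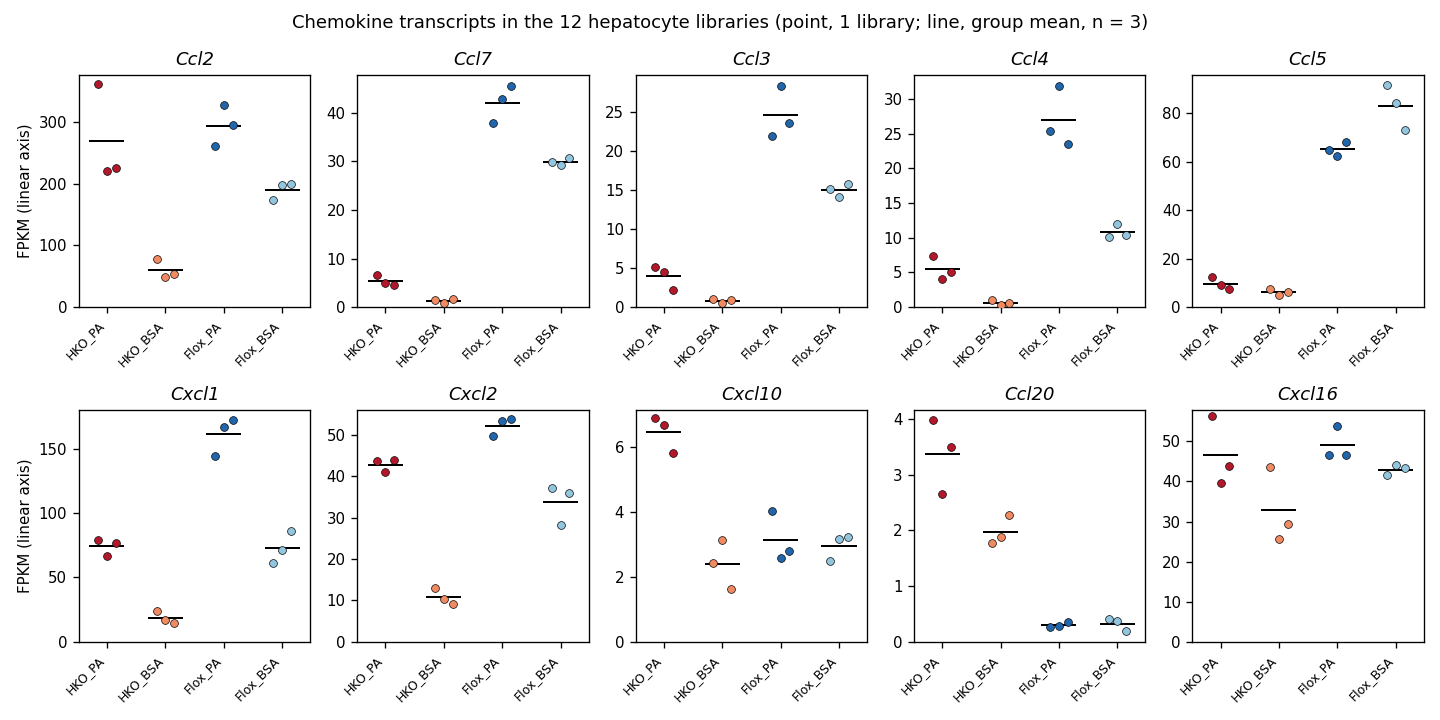
FPKM of each of the 10 chemokine genes in each library (points, linear axis from 0) with the group mean (line), for HKO_PA, HKO_BSA, Flox_PA and Flox_BSA from left to right. Ccl3, Ccl4, Ccl5 and Ccl7 are lower in all HKO libraries than in any Flox library, Ccl20 is higher in all of them, and Ccl2 with PA overlaps between genotypes.

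In HKO hepatocytes, 8 of the 10 chemokine genes rose with PA, and Ccl5 and Cxcl16 did not pass. Of all genes tested in this comparison 2.94% passed, and 1.68% passed as higher. The median difference of the 10 was 1.43 on the log2 scale, beside 0 for all genes tested. The groups did not overlap in 8 of the 10, as in 18.2% of all genes.

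The CXCR2 ligands and Ccl2 rose by log2 1.89 to 2.14. Cxcl2 averaged 42.8 ± 1.57 FPKM in HKO_PA and 10.9 ± 1.98 FPKM in HKO_BSA (SD, n = 3 each), 3.92 times as much, with log2 1.89 (SE 0.14, adjusted p = 1.14e-05). Cxcl1 averaged 74.2 ± 6.80 FPKM in HKO_PA and 18.5 ± 4.96 FPKM in HKO_BSA (log2 1.97, SE 0.18, adjusted p = 4.58e-05). Ccl2 averaged 269 ± 79.8 FPKM in HKO_PA and 59.7 ± 15.6 FPKM in HKO_BSA (log2 2.14, SE 0.21, adjusted p = 8.37e-05), and its neighbour Ccl7 averaged 5.39 ± 0.986 FPKM in HKO_PA and 1.30 ± 0.445 FPKM in HKO_BSA (log2 1.48, adjusted p = 0.000201). These rises were 4.51-fold for Ccl2 and 4.13-fold for Ccl7 in mean FPKM. Ccl4 had the highest ratio of mean FPKM of the 10, with 5.49 ± 1.66 in HKO_PA against 0.626 ± 0.344 in HKO_BSA, 8.76 times as much on few reads (log2 1.99, adjusted p = 8.97e-05). Ccl3 rose 4.73-fold in mean FPKM (log2 1.38, adjusted p = 0.0031). Cxcl10 rose to 6.48 ± 0.576 FPKM in HKO_PA against 2.41 ± 0.754 FPKM in HKO_BSA (log2 1.15, SE 0.18, adjusted p = 0.00314).

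Ccl20 rose least among those that passed (log2 0.55, SE 0.13, adjusted p = 0.0372). That call was lost with a pseudocount of 0.1 (adjusted p = 0.127), with only the HKO groups fitted (0.315) and without HKO_PA 1, HKO_BSA 1, HKO_BSA 2 or HKO_BSA 3 (adjusted p up to 0.128). Ccl5 differed by log2 0.55 (95% interval 0.17 to 0.94, adjusted p = 0.113) and Cxcl16 by log2 0.51 (0.12 to 0.90, adjusted p = 0.14). Leaving out HKO_PA 3 brought Ccl5 past the threshold (adjusted p = 0.0341), and leaving out HKO_BSA 1 did so for Cxcl16 (adjusted p = 0.0215). Without both HKO libraries numbered 1 both genes passed (adjusted p = 0.0494 and 0.0116). Of 14 macrophage markers tested, Marco (log2 0.95) and Lyz2 (log2 0.65) were higher with PA in HKO, where 1.68% of all genes were higher. The other 12 did not pass, and the median of the list was 0.02. The part of these markers in the rise of the chemokines was not tested.

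In Flox hepatocytes, 3 of the 10 genes rose with PA, Ccl4, Cxcl1 and Cxcl2, and the other 7 did not pass. Of all genes 2.21% passed in this comparison, and 1.29% passed as higher. The median of the 10 was 0.55, beside 0.015 for all genes. The libraries of PA and BSA did not overlap in 8 of the 10 genes, higher in 7 and lower in Ccl5, as in 39% of all genes.

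Ccl4 averaged 26.9 ± 4.40 FPKM in Flox_PA and 10.9 ± 1.02 FPKM in Flox_BSA, 2.48 times as much (log2 1.23, SE 0.20, adjusted p = 0.00493). Cxcl1 averaged 161 ± 15.01 FPKM in Flox_PA and 73.0 ± 12.5 FPKM in Flox_BSA, 2.21 times as much (log2 1.14, SE 0.18, adjusted p = 0.0044). Cxcl2 averaged 52.2 ± 2.31 FPKM in Flox_PA and 33.7 ± 4.84 FPKM in Flox_BSA (log2 0.63, SE 0.14, adjusted p = 0.0401), a call that was lost when any 1 of the 6 Flox libraries was left out (adjusted p 0.0787 to 0.218). With a pseudocount of 0.1 neither Ccl4 nor Cxcl2 passed (adjusted p = 0.0568 for both).

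Ccl2 was 294 ± 33.7 FPKM in Flox_PA and 190.5 ± 15.1 FPKM in Flox_BSA (log2 0.62, 95% interval 0.17 to 1.07, adjusted p = 0.171), Ccl3 had log2 0.67 (0.22 to 1.12, adjusted p = 0.136) and Ccl7 log2 0.48 (0.13 to 0.82, adjusted p = 0.17). These 3 genes passed when both HKO libraries numbered 1 were left out of the fit that estimates the spread, with adjusted p = 0.00298, 0.0258 and 0.0277, and when only the Flox groups were fitted. Ccl5 differed by log2 -0.34 (-0.73 to 0.04, adjusted p = 0.365) and passed as lower when only the Flox groups were fitted (adjusted p = 0.0376). Cxcl16, Cxcl10 and Ccl20 differed by log2 0.18, 0.05 and -0.02, with intervals of -0.21 to 0.57, -0.33 to 0.43 and -0.30 to 0.26. Of 14 macrophage markers tested, Timd4 (log2 -0.55) and Vsig4 (log2 -0.93) were lower with PA in Flox, where 2.21% of all genes passed in either direction. The other 12 did not pass, and the median of the list was -0.29. Of 2 neutrophil markers tested Csf3r was higher (log2 0.62, adjusted p = 0.0113), where 1.29% of all genes were higher, and S100a8 did not pass. The part of these markers in the chemokine values was not tested.

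**Figure D3:**
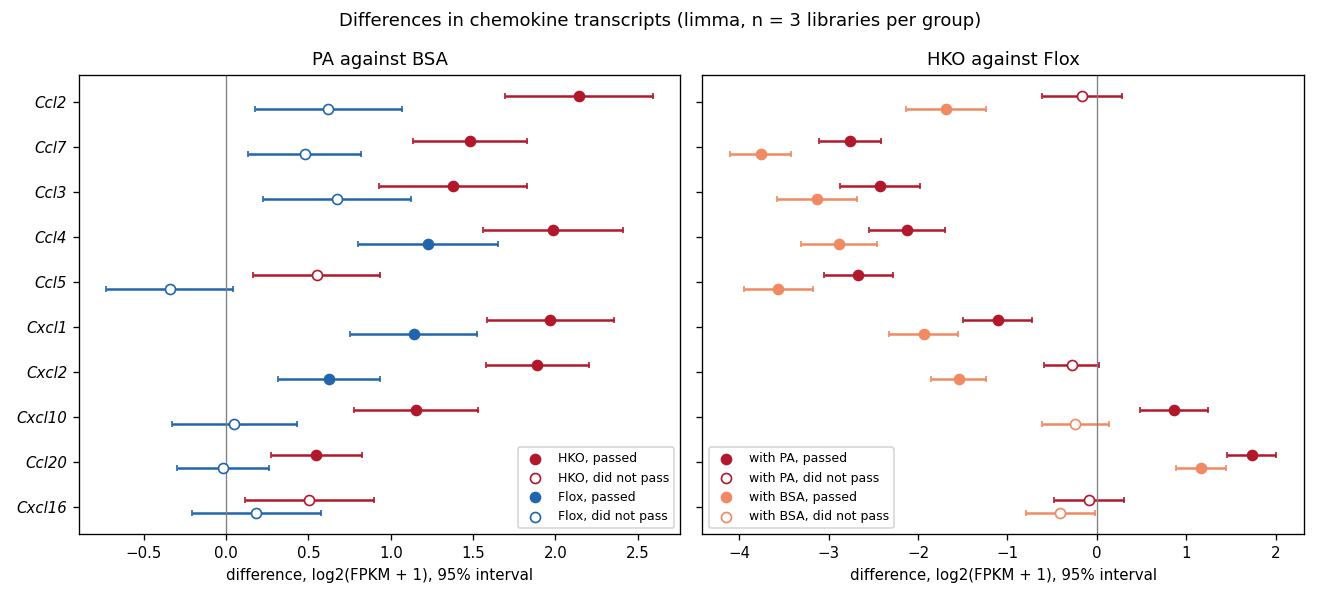
Log2 difference of each chemokine gene with its 95% interval on the log2(FPKM + 1) scale, for PA against BSA in HKO and in Flox (left) and for HKO against Flox with PA and with BSA (right). Filled points passed the test, which for Ccl20 between genotypes the filter fixed, and the PA estimates in HKO run from 0.51 for Cxcl16 to 2.14 for Ccl2 and lie above those in Flox for each of the 10 genes.

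Whether PA acted more strongly in HKO than in Flox was asked by the difference between both effects. The estimate was positive for each of the 10 genes, with a median of 0.86 beside 0.018 for all genes, but only Cxcl2 passed, where 0.267% of all genes passed and 0.164% passed as higher. Cxcl2 had log2 1.27 (SE 0.20, adjusted p = 0.0212), from log2 1.89 in HKO and 0.63 in Flox. The call was lost when genotype and replicate number were a block (adjusted p = 0.146) and without HKO_PA 2, HKO_BSA 2, HKO_BSA 3, any of the 3 Flox_PA libraries, Flox_BSA 1 or Flox_BSA 3, within a range of adjusted p from 0.0109 to 0.0769 over all 12 omissions. The estimate itself stayed between 1.16 and 1.39. Ccl2 fell just short (log2 1.52, 95% interval 0.89 to 2.16, adjusted p = 0.0541) and passed with trimmed-mean scaling of the libraries (adjusted p = 0.0375), quantile normalization (0.00999) and limma-voom on reads (0.0347), and without HKO_PA 3 (0.0332) or HKO_BSA 1 (0.0246). Cxcl10 had log2 1.10 (0.57 to 1.64, adjusted p = 0.071) and Ccl7 log2 1.003 (0.52 to 1.49, adjusted p = 0.071). The other 6 ran from log2 0.32 for Cxcl16 to 0.89 for Ccl5, with adjusted p of 0.129 or more. This scale makes the PA effect in HKO too small for Ccl3 and Ccl4, whose HKO_BSA means were under 1 FPKM. In mean FPKM, PA over BSA was 8.76 in HKO and 2.48 in Flox for Ccl4, and 4.73 and 1.64 for Ccl3. For Cxcl2 it was 3.92 and 1.55. Without HKO_PA 3, 6 of the 10 passed, without both HKO libraries numbered 1, 5 did, and with other single libraries left out between 0 and 2 did.

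With PA, HKO hepatocytes had less Ccl3, Ccl4, Ccl5, Ccl7 and Cxcl1 than Flox hepatocytes and more Ccl20 and Cxcl10, while Ccl2, Cxcl2 and Cxcl16 did not pass. That is 7 of 10, or 6 of 9 without Ccl20, whose direction the filter fixed, in a comparison in which 35.7% of all genes passed, 16.9% as higher and 18.8% as lower. The median of the 10, Ccl20 included, was -0.70, beside 0.003 for all genes. The groups did not overlap in 8 of the 10, Ccl20 among them, as in 52% of all genes.

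Ccl7 averaged 5.39 ± 0.986 FPKM in HKO_PA and 42.1 ± 3.88 FPKM in Flox_PA, where it was 7.82 times as high (log2 -2.76, SE 0.16, adjusted p = 1.02e-08). Ccl5 averaged 9.59 ± 2.69 FPKM in HKO_PA and 65.1 ± 2.95 FPKM in Flox_PA (log2 -2.67, SE 0.18, adjusted p = 4.8e-08). Ccl3 and Ccl4 were lower by log2 -2.43 and -2.13 (adjusted p = 7.15e-07 and 1.59e-06). Cxcl1 was lower by a smaller amount, log2 -1.11 (SE 0.18, adjusted p = 4e-04). Cxcl2 differed by log2 -0.28 (95% interval -0.59 to 0.03, adjusted p = 0.14) although its libraries did not overlap, and Ccl2 by log2 -0.16 (-0.61 to 0.29, adjusted p = 0.567). Under quantile normalization both passed as lower, with adjusted p = 0.03 for Cxcl2 and 0.0209 for Ccl2, and Ccl2 did so without both HKO libraries numbered 1 (0.0169). Cxcl16 differed by log2 -0.09 (-0.48 to 0.30, adjusted p = 0.737). Ccl20 averaged 3.38 ± 0.672 FPKM in HKO_PA and 0.307 ± 0.0471 FPKM in Flox_PA, given as a description. Cxcl10 was higher in HKO_PA by log2 0.86 (SE 0.18, adjusted p = 0.00219), 2.06 times as much in mean FPKM.

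With BSA, 7 of the 10 genes were lower in HKO hepatocytes, Cxcl10 and Cxcl16 did not pass, and Ccl20 was higher, as the filter fixed. Of all genes 20.5% passed, 9.63% as higher and 10.8% as lower. The median of the 10, Ccl20 included, was -1.81, beside 0.039 for all genes. The groups did not overlap in 8 of the 10, Ccl20 among them, as in 37.7% of all genes.

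The lowest of the 10 against Flox was again Ccl7, with 1.30 ± 0.445 FPKM in HKO_BSA and 29.9 ± 0.743 FPKM in Flox_BSA, where it was 22.9 times as high (log2 -3.76, SE 0.16, adjusted p = 3.86e-10). Ccl5 averaged 6.15 ± 1.25 FPKM in HKO_BSA and 83.0 ± 9.22 FPKM in Flox_BSA (log2 -3.56, SE 0.18, adjusted p = 1.87e-09). Ccl3 had log2 -3.13 and Ccl4 log2 -2.88 (adjusted p = 3.65e-08 and 4.7e-08), with 18.0 and 17.3 times as much mean FPKM in Flox_BSA. Cxcl1, Ccl2 and Cxcl2 were also lower, by log2 -1.94, -1.69 and -1.55 (adjusted p = 1.4e-06, 3.18e-05 and 1.5e-06), which in mean FPKM was 3.94, 3.19 and 3.09 times as much in Flox_BSA. Ccl20 averaged 1.98 ± 0.272 FPKM in HKO_BSA and 0.326 ± 0.113 FPKM in Flox_BSA, again as a description. Cxcl16 differed by log2 -0.41 (-0.80 to -0.02, adjusted p = 0.136) and passed as lower without HKO_BSA 1 (adjusted p = 0.0088), under quantile normalization (0.0143) and without both HKO libraries numbered 1 (0.000524). Cxcl10 differed by log2 -0.24 (-0.62 to 0.14, adjusted p = 0.386).

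Beside these genotype differences stand those of the cell markers. The median macrophage marker differed by log2 -3.72 with PA and -4.19 with BSA, a list in which 4 of the 14 genes reached testing only through Flox. The neutrophil markers that reached testing, S100a8 and Csf3r, did so only through Flox, so their lower values in HKO give no test. Endothelial markers were lower in 3 of 5 tested with PA and in 4 of 5 with BSA (medians -0.62 and -0.64), where 18.8% and 10.8% of all genes were lower, and Clec4g, too low to test, was higher in HKO libraries (0.258 to 0.846 FPKM, against 0 to 0.255 FPKM in Flox libraries). Of the cholangiocyte markers only Sox9 and Spp1 were tested. They were higher in 2 of 2 with PA and in 1 of 2 with BSA, where 16.9% and 9.63% of all genes were higher. Hepatocyte markers were higher in HKO in 3 of 8 with PA and in 2 of 8 with BSA (medians 0.31 and 0.16), and 0 were lower. The part of the markers in the genotype differences of the chemokines was not tested.

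**Figure D4:**
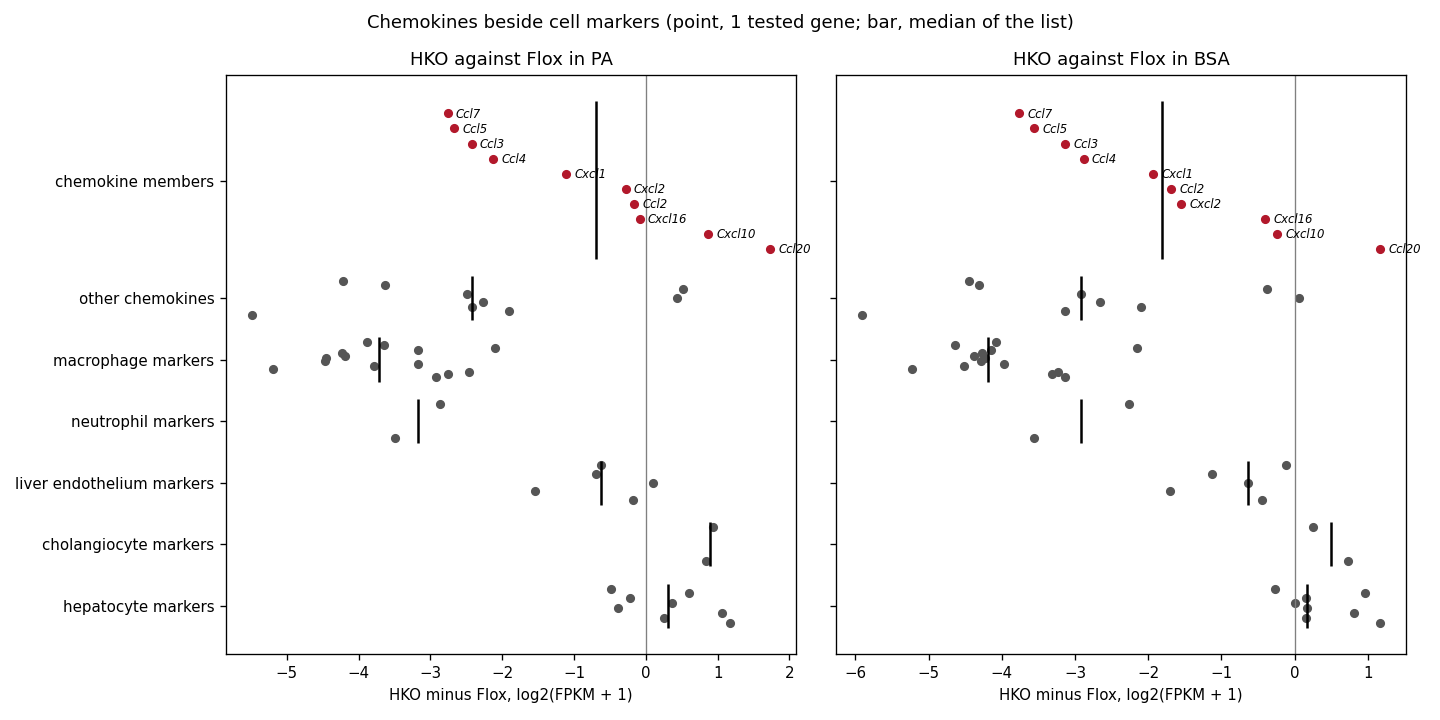
Log2 difference between HKO and Flox with PA (left) and with BSA (right) for the 10 chemokine genes (named points), 9 other chemokines and the tested markers of each cell type, with a bar at each list's median. The macrophage markers have medians of -3.72 with PA and -4.19 with BSA, and the 10 chemokine genes spread from Ccl7 at the low end to Ccl20 at the high end.

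Across all 12 libraries, the genes whose levels ran most like those of each chemokine (Pearson r of log2(FPKM + 1), over 8770 candidates) were partly shared among them. The other chemokine members were kept out of the candidates. These correlations are descriptions over libraries that share the same genotype and treatment differences. Among these candidates Ccl2 ran most like the hepcidin gene Hamp (r = 0.946), the early response factor Fos (0.946) and Ier3 (0.941). Hamp also led for Cxcl1 (0.976, followed by Nags at 0.969 and Mreg at 0.962) and for Cxcl2 (0.947, followed by Fos at 0.938 and Chaf1b at 0.933). Ccl5 ran most like Krt17 (0.996), the Fc receptor chain Fcer1g (0.996), which myeloid cells express, and Wfdc17 (0.995). Slpi, a protease inhibitor, led for both Ccl3 (0.987, with Tnf and Il1a next) and Ccl7 (0.992, with Ccl9 at 0.992 and Lcn2 at 0.991). Ccl4 ran most like Sod2 (0.989), Cxcl3 (0.987) and Nags (0.98), and Cxcl16 most like Prdx5 (0.962), Saa2 (0.96) and Ninj1 (0.959). For Ccl20 these genes were Hebp2 (0.979), Mgst1 (0.973) and Bdh2 (0.973), and for Cxcl10 the likeness was lowest, with Ahsa2 (0.878), Dnajc17 (0.87) and Bcl2l14 (0.861). Among the 10 themselves, Ccl3 and Ccl7 were most alike (0.991), Ccl2 and Cxcl2 followed (0.971), and Ccl5 and Ccl20 most unlike (-0.897).

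Of 28 other chemokine genes 9 could be tested. With PA in HKO 2 of the 9 rose (1.68% of all genes), Cxcl3 (a CXCR2 ligand; log2 1.58, adjusted p = 0.000143) and Ccl9 (log2 1.22, adjusted p = 0.00193), and with PA in Flox 1 did, Cxcl3 (log2 1.16, adjusted p = 0.0022). Cxcl3 had 3.92, 2.46 and 4.11 FPKM in HKO_PA, 0.718, 0.345 and 0.398 FPKM in HKO_BSA, 20.4, 25.2 and 26.3 FPKM in Flox_PA, and 10.05, 10.44 and 10.01 FPKM in Flox_BSA, the same order of groups as Ccl3 and Ccl4. In HKO against Flox, Ccl12, Ccl24 and Cxcl13 reached testing only through Flox and so had to be lower in HKO, and of the other 6 genes 4 were lower with PA and 4 with BSA (18.8% and 10.8% of all genes). Among those 4, Pf4 (platelet factor 4) was lower with BSA by log2 -4.45, Ccl6 by -5.91 and Ccl9 by -3.14. With PA, Pf4 was lower by log2 -4.22, Ccl6 by -5.49 and Cxcl3 by -2.49. Cxcl13, a B cell attractant whose direction the filter fixed, is given as a description. It averaged 0.913 FPKM in HKO_PA, 1.02 in HKO_BSA, 22.1 in Flox_PA and 38.7 in Flox_BSA. Cxcl9 and Ccl27a did not pass in either treatment. Of 23 chemokine receptors 1, Ccrl2, reached the level for testing, and only through Flox. It had 1.17 ± 0.157 FPKM in HKO_PA, 0.626 ± 0.0269 in HKO_BSA, 2.60 ± 0.649 in Flox_PA and 1.73 ± 0.139 in Flox_BSA. The receptors summed to 1.31 to 2.95 FPKM in HKO libraries and 6.65 to 9.15 FPKM in Flox libraries.

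Of the genes of NF-kB and its inhibitors, 3 of 13 tested rose with PA in HKO, where 1.68% of all genes rose, and each encodes an IkB-type protein, which binds NF-kB: Nfkbiz (log2 0.75, adjusted p = 0.00329), Nfkbia (log2 0.95, adjusted p = 0.0108) and Nfkbie (log2 0.54, adjusted p = 0.0466). Nfkbib (log2 0.41, adjusted p = 0.165) and Bcl3 (log2 -0.03, adjusted p = 0.943), of the same family, did not pass. With PA in Flox 0 of the 13 passed. Bcl3 (log2 0.65, adjusted p = 0.0701) and Nfkbiz (log2 0.44, adjusted p = 0.0801) came closest. Nfkbia measured 41.1, 56.0 and 45.8 FPKM in Flox_PA and 29.7, 31.8 and 32.6 FPKM in Flox_BSA (log2 0.58, 95% interval 0.20 to 0.95, adjusted p = 0.127). These libraries did not overlap, as in 39% of all genes. In HKO against Flox 6 of 13 were lower with PA and 6 with BSA (18.8% and 10.8% of all genes), among them Nfkbia (log2 -1.03 and -1.40), Nfkbiz (-1.05 and -1.36) and Tnfaip3 (-1.29 and -1.53).

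Of 14 upstream cytokine and receptor genes tested, 3 rose with PA in each genotype. Tnf, which switches on NF-kB, rose by log2 0.78 in HKO (adjusted p = 0.00978) and 0.77 in Flox (adjusted p = 0.0115). It averaged 1.36 FPKM in HKO_PA and 0.372 in HKO_BSA, against 10.7 in Flox_PA and 5.80 in Flox_BSA. In HKO_BSA it rests on 8, 7 and 15 reads. The log2 difference comes out too small at such levels, so the near-equal values do not show an equal response. Cd14, the co-receptor for lipopolysaccharide, rose by log2 0.72 in HKO and 0.72 in Flox (adjusted p = 0.0203 and 0.0239). The other gene was Il1b in HKO (log2 0.91, adjusted p = 0.0166) and the adaptor gene Ticam1 in Flox (log2 0.56, adjusted p = 0.0327). Of all genes 1.68% rose in HKO and 1.29% in Flox. Tnf and Il1a were among the genes that reached testing only through Flox, which fixes their direction between genotypes. Of the 10 genes that averaged at least 1 FPKM in both genotypes 7 were lower in HKO with PA and 5 with BSA (18.8% and 10.8% of all genes), among them Il1b (log2 -2.25 and -3.16).

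Among 8 mRNA decay genes, Zfp36 rose with PA in both genotypes, where 1.68% of all genes rose in HKO and 1.29% in Flox. It averaged 11.9 ± 1.008 FPKM in HKO_PA against 7.60 ± 1.34 FPKM in HKO_BSA (log2 0.60, adjusted p = 0.0341). In Flox_PA it averaged 13.95 ± 1.55 FPKM against 8.75 ± 0.417 FPKM in Flox_BSA (log2 0.61, adjusted p = 0.034). The other 7 did not pass with PA in either genotype. Of the list 3 were lower in HKO with PA and 3 with BSA (18.8% and 10.8% of all genes), in each case including Zc3h12a, which encodes the RNase regnase-1 (log2 -1.96 and -2.20), and Zfp36l2 (log2 -0.74 and -0.55). Of 2 tested enzymes that cleave chemokines, Adam17 was lower in HKO with BSA (log2 -0.79, adjusted p = 0.00148), where 10.8% of all genes were lower. Adam17 did not pass with PA, and Adam10 did not pass in either treatment. Dpp4, too low to test, had higher means in HKO. They were 0.763 FPKM in HKO_PA and 1.22 in HKO_BSA, against 0.365 in Flox_PA and 0.607 in Flox_BSA.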

How the data were processed

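RNA-seq of 12 libraries of primary mouse hepatocytes gave the values, in 4 groups of 3 by the labels. FPKM per gene are the deposited unit, per the file headers, and the build is GRCm38 (mm10), per the submitters' processing notes; the sources used here name no aligner, counter or library scaling. FPKM times the deposited gene length gave whole reads within 0.01 for 100% of values up to 1000 reads.

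One limma 3.58.1 model (R 4.3.3, variance trend on the mean, 4 group means) on log2(FPKM + 1) was fitted to the 9743 genes that averaged 1 FPKM or more across the 12 libraries. From it came PA against BSA in each genotype, HKO against Flox in each treatment, and the difference between the PA effects; tests are two-sided, with Benjamini-Hochberg adjustment over the tested genes and a threshold of 0.05. Fits were checked on reads simulated with the same spread in every group. That check does not cover the larger spread among the HKO libraries. Alternatives were a pseudocount of 0.1, no filter, trimmed-mean scaling, quantile normalization, limma-voom on reads, replicate blocks, only the groups compared, and omission of libraries. Motifs were searched in RefSeq promoters (GRCm38.p6) and GENCODE M21 untranslated regions with Python 3.11.15.

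The members and lists were chosen with earlier results of these data known. Named genes are the 10 members, G3bp1, up to 4 genes per other list that passed (smallest p), Tnf, Nfkbia, Zfp36, leading or absent markers, and the 3 genes most like each member.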

Additional observations from a re-analysis of the deposited data

Results flagged for a closer look

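Cxcl2 passed a test of the difference between genotypes in its PA effect, a call that depended on the libraries and the model. The PA effect in HKO minus that in Flox was 1.27 on the log2(FPKM + 1) scale (SE 0.20, limma, adjusted p = 0.0212). All 3 PA libraries were above all 3 BSA libraries in both genotypes, which describes each PA effect and not their difference. The difference was between 1.16 and 1.39 with each library left out in turn, and adjusted p was between 0.0109 and 0.0769. The call was kept in 4 of these 12 omissions, and it was lost with genotype and replicate number as a block.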

How the results depend on the processing

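Counts of the 10 chemokine genes past the limma threshold were within 1.5 times the reported count under each alternative for PA against BSA in HKO (8 reported) and for HKO against Flox in PA (7) and in BSA (8). The counts for HKO against Flox include Ccl20, whose direction the filter fixed. For PA against BSA in Flox (3 reported) the count was 1 with a pseudocount of 0.1, 7 with only the groups compared, and 6 without both HKO libraries numbered 1. For the difference between the PA effects (1 reported) it was 2 with trimmed-mean scaling, 2 with quantile normalization, 3 with limma-voom on reads and 5 without both HKO libraries numbered 1. With single libraries left out it was 7 to 9 and 2 for PA in HKO and in Flox, 7 and 8 to 9 for HKO against Flox in PA and in BSA, and 0 to 6 for the difference. Counts over all genes moved more. For PA in HKO 286 passed, against 144 with no filter, 42 with only the groups compared, 679 without both HKO libraries numbered 1 and 129 to 776 with single libraries left out. For PA in Flox 215 passed, against 142 with a pseudocount of 0.1, 1543 with only the groups compared, 1356 without both HKO libraries numbered 1 and 64 to 169 with single libraries left out. For HKO against Flox with BSA 1994 passed, against 3579 without both HKO libraries numbered 1 and 1329 to 2376 with single libraries left out, and with PA 3475, against 2280 to 4203. For the difference 26 passed, against 58 with quantile normalization, 61 with limma-voom, 88 without both HKO libraries numbered 1 and 0 to 265 with single libraries left out. A few member values near 0 changed sign with single libraries left out: for PA in Flox Ccl20 ran from -0.09 to 0.025 and Cxcl10 from -0.098 to 0.144, and for HKO against Flox in PA Cxcl16 ran from -0.229 to 0.022. The cause was not tested.

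For PA and BSA libraries with the same replicate number, correlations of their deviations differed in sign. They were -0.243, 0.349 and -0.484 in HKO and 0.203, -0.015 and 0.316 in Flox. Between HKO and Flox libraries of the same number they were 0.276, -0.212 and 0.363 with PA and 0.14, 0.044 and 0.182 with BSA. With 3 libraries per group these values cannot show whether the numbers mark pairs. The main fit does not treat them as pairs. With genotype and number as a replicate block 113 genes passed for PA in HKO, 110 for PA in Flox and 3 for the difference; with number alone as a block 15 passed for the difference. Cxcl2 for PA in Flox and Ccl20 for PA in HKO lost their calls under both blocks (adjusted p = 0.0558 and 0.102 for Cxcl2, 0.0623 and 0.106 for Ccl20). With 10, 3 and 7 reads of Ccl4 in HKO_BSA and 5 to 11 of Ccl20 in Flox libraries, depth limits the precision of these levels.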
